A study of Mus musculus with 6 samples.

Results

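Pla2g4c, Pla2g4a, Pla2g6, Pla2g7, Pla2g15 and Pla2g1b are the 6 phospholipase A2 genes described here, out of 18193 genes with a probe set annotated to that gene alone. They were chosen with earlier results of the same arrays known, so each member's difference between KO and L/L is a description with no p-value. On the arrays they had 13 probe sets, of which 9 had a mean log2 intensity above 5.28 (an intensity of 38.9, the 40th percentile of all probe sets other than controls). The other 4 lay below that threshold and are marked as dim. Each of the 6 genes had at least 1 probe set above it, so all 6 were among the 13042 genes kept.

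Phospholipases A2 cut a fatty acid off membrane phospholipids and leave a free fatty acid and a lysophospholipid. When the fatty acid is arachidonic acid, it feeds the synthesis of prostaglandins and leukotrienes, and acyltransferases can put a fatty acid back on the lysophospholipid. In the gut, members of the family take part in lipid signalling, in the remodelling of membranes, in the digestion of dietary phospholipid and in the defence of the crypt by Paneth cells.

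RNA of the whole, flushed small intestine of mice was hybridised to Affymetrix arrays after induced deletion of Fitm2, which encodes an endoplasmic reticulum protein needed for lipid droplet formation. The KO mice were ROSA26CreERT2 L/L, with a tamoxifen-activated Cre recombinase expressed from a ubiquitous promoter and thus not restricted to the epithelium. The controls were L/L without that Cre, a notation the labels do not spell out and that usually stands for loxP-flanked alleles. Mice of both genotypes received intraperitoneal tamoxifen at 100 µg per g on days 1, 2 and 3, and intestines were taken on day 2, 3 or 5. Whether the mice of days 2 and 3 had received later doses is unstated, as are age and strain. RNA was pooled from 7 KO and 6 L/L mice on day 2, from 6 KO and 6 L/L mice on day 3 and from 7 KO and 8 L/L mice on day 5. Each pool gave 1 array, so there is no replicate within a day, and the number of arrays, 6, limits the precision of every value.

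The Fitm2 probe set read 122.7, 126.6 and 119.6 in KO on days 2, 3 and 5, against 192.7, 223.5 and 210.8 in L/L, and was thus lower in KO on each day (log2 difference -0.65, -0.82 and -0.82). Its position relative to the deleted part of the gene is not known here. Array medians lay between 57.8 and 59.8. The median absolute log2 difference between KO and L/L over the 13042 genes for days 2, 3 and 5 was 0.07, 0.10 and 0.16, against 0.12 between days 3 and 2 within L/L. Of the epithelial markers, 11 of 11 measured genes lay above the threshold, with median log2 differences between KO and L/L of -0.01, 0.00 and 0.04 for days 2, 3 and 5.

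Pla2g4c, on chromosome 7, encodes the gamma form of cytosolic phospholipase A2. Unlike its alpha relative it lacks the calcium-binding domain, and in human cells it is held at membranes by a lipid anchor. In these arrays it was higher in KO than in L/L on day 2 and lower on days 3 and 5, and its intensity took opposite courses in the 2 genotypes. Its brighter probe set read 278.2 on day 2, 99.16 on day 3 and 90.91 on day 5 in KO, against 110.3, 399.6 and 740.9 in L/L. The highest KO array was thus the first and the highest L/L array the last, and the 2 sets of 3 arrays overlapped. The KO minus L/L difference was 1.33 on the log2 scale on day 2 (2.52-fold higher in KO). It was -2.01 on day 3 (4.03-fold lower) and -3.03 on day 5 (8.15-fold lower). Its mean over the 3 days, -1.23 ± 2.28 (SD, n = 3 days), is close to none of them. In bulk tissue, fewer cells of a type and less RNA per cell cannot be told apart, here and in every value below.

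The dimmer probe set of Pla2g4c gave the same signs. It read 78.93, 56.29 and 26.16 in KO, against 40.37, 73.99 and 120.2 in L/L, with the KO array of day 5 below the intensity threshold. Its log2 differences for days 2, 3 and 5 were 0.97, -0.39 and -2.20. With the dim array raised to the threshold, Pla2g4c was at least 3.09-fold lower in KO on day 5 by this probe set. On day 3 the 2 probe sets disagreed in size, 4.03-fold by the brighter and 1.31-fold by the dimmer. Which part of the transcript each probe set detects is not known here.

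**Figure D1:**
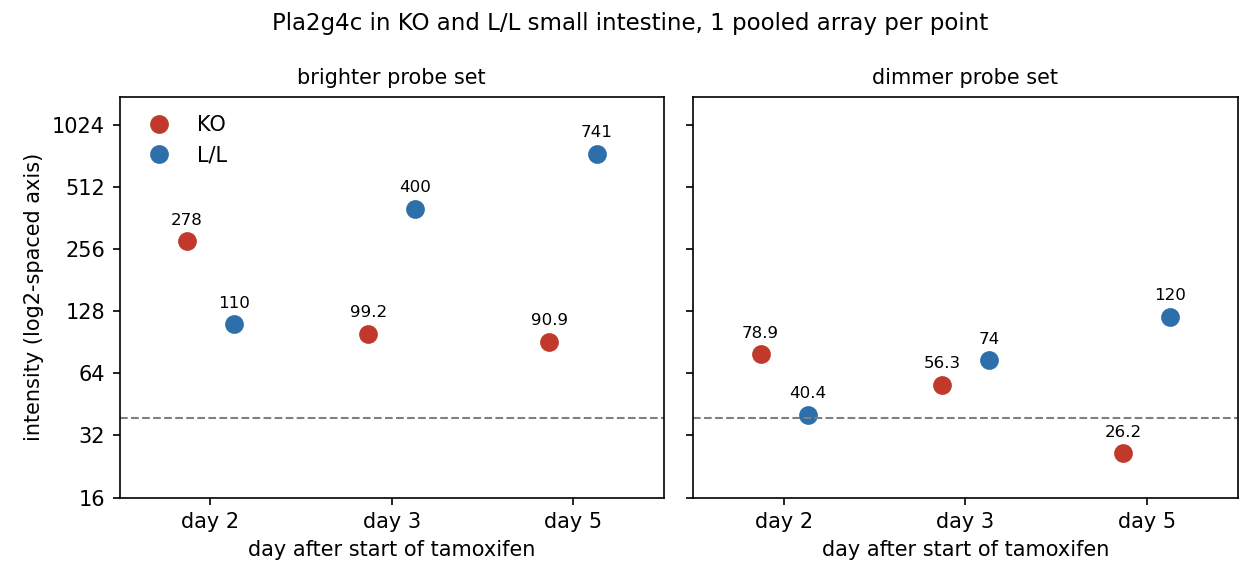
Intensity of the 2 Pla2g4c probe sets (log2-spaced vertical axis) by day for KO (red) and L/L (blue), 1 pooled array per point, with the intensity threshold of 38.9 as a dashed line. In both panels KO lies above L/L on day 2 and below it on days 3 and 5, with 90.91 in KO against 740.9 in L/L on day 5 by the brighter probe set.

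Within L/L, Pla2g4c was 3.62-fold higher on day 3 than on day 2 (log2 1.86) and 6.72-fold higher on day 5 than on day 2 (log2 2.75). The step between days 3 and 5 was 1.85-fold (log2 0.89). The day 5 to day 2 difference was the highest of the 13042 genes, and day 3 to day 2 the 4th highest. Leaving dim genes in, an offset and 2 other scalings kept the day 5 to day 2 difference highest. With probe sets of a gene averaged it was the 2nd highest of 11928. A stricter filter only removes genes and so could not lower its place. The gene was chosen with earlier results of these arrays known, so its places are a description. By the dimmer probe set the L/L differences were 0.87 between days 3 and 2 and 1.57 between days 5 and 2. Both genotypes received tamoxifen, and no untreated intestine was analysed here.

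Within KO the course ran the other way. Pla2g4c was 2.81-fold lower on day 3 than on day 2 (log2 -1.49), the 2nd lowest of the 13042 genes for that step. It differed by -0.13 between days 5 and 3, so that day 5 against day 2 came to -1.61 (3.06-fold lower).

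Of the 6 members, 1, Pla2g4c, differed by 2-fold or more between KO and L/L on each day. The shares of all genes that did so on days 2, 3 and 5 were 0.123%, 0.276% and 2.16%. Since the members were chosen on this contrast, nothing is read from their count. Within L/L, 1 of 6 members, again Pla2g4c, passed 2-fold between days 3 and 2 (0.199% of all genes) and between days 5 and 2 (0.414%), and 0 of 6 between days 5 and 3 (0.161%). A gene at least 2-fold higher in KO on day 2 and at least 2-fold lower on day 5 was found once among the 13042 (0.00767%), and it was Pla2g4c. That it would meet this criterion was known from its own values, so nothing is read from the share. A course at least 2-fold down in KO and at least 2-fold up in L/L between days 2 and 5 was shared by 3 genes (0.023%), Pla2g4c, Car4 and Gsdmc2, which are named because they meet this criterion and were picked after their values were seen.

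**Figure D2:**
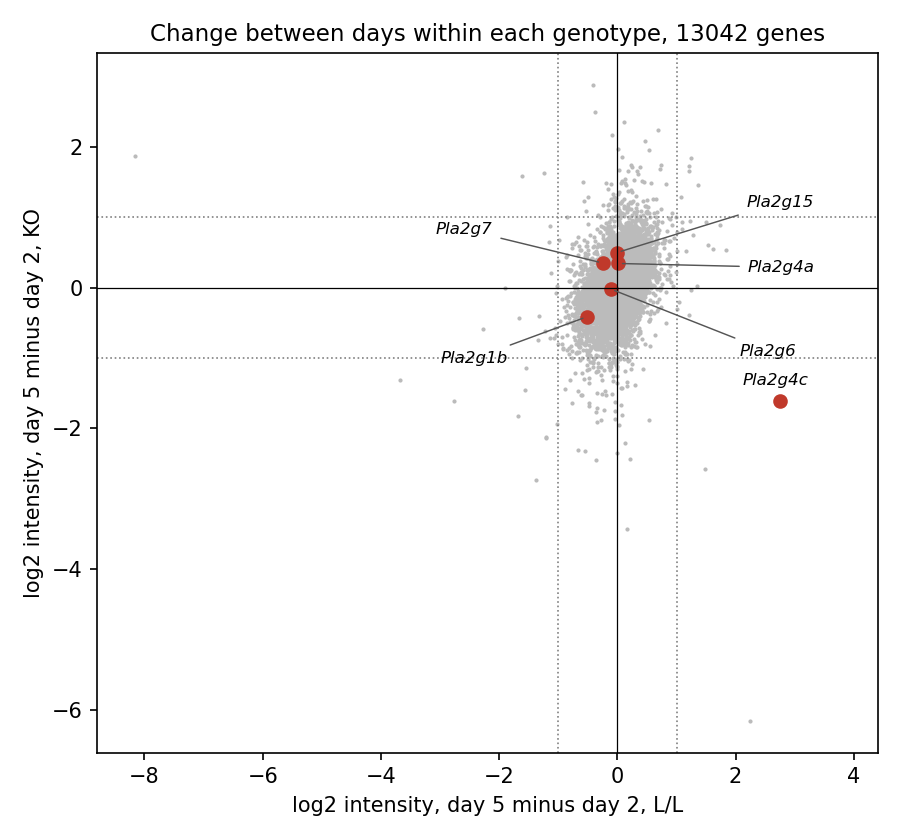
Each grey point is 1 of 13042 genes, with its log2 difference between days 5 and 2 within L/L (horizontal) and within KO (vertical), and dotted lines at 2-fold. The 6 phospholipase A2 genes are red, and Pla2g4c lies apart at 2.75 in L/L and -1.61 in KO while the other 5 lie inside the 2-fold lines.

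RefSeq annotates 2 starts of Pla2g4c on the plus strand of chromosome 7, and which of them is used in these intestines is not known here. The 250 bases before each start are shown because the gene carries the main pattern among the members. They are from build GRCm38.p6, chr7:13325417-13325666 before the start at 13325667 and chr7:13329072-13329321 before the start at 13329322, written 5′ to 3′ in lower case.
Pla2g4c upstream start: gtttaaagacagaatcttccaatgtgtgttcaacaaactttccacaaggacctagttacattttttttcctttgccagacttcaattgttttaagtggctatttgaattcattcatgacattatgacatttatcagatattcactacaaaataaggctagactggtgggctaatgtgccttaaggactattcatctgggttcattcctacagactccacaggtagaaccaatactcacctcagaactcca
Pla2g4c downstream start: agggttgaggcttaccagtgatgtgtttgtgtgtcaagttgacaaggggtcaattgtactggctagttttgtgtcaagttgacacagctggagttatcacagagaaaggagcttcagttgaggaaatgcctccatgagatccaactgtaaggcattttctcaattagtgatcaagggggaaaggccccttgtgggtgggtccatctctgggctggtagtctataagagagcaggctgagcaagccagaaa
Neither window held the core promoter motif TATAAA on either strand, which 12.4% of all 32851 windows of the same length hold. The letters AGATAA, a site of zinc finger factors of the gut, were missing too, and 9.99% of all windows hold them. A site of the intestinal homeobox factors, TTTATG, occurs in 10.8% of all windows and in neither of these. The nuclear receptor core site AGGTCA occurs in 14% of all windows and again in neither, so no base is in capitals. No match says only that these letters are not in these windows.

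Genes whose 6 values followed Pla2g4c most closely were ranked by the root mean square difference of log2 intensities after centring each gene on its own mean. AA467197 came first at 0.71, then Capn13 at 0.71, Slc1a1 at 0.72, Ms4a4b at 0.74 and Nox4 at 0.76. The median over all genes was 1.15 over the same 6 arrays. That median is no measure of likeness, since a level gene would differ from Pla2g4c by the spread of Pla2g4c itself. The matches were loose: between days 2 and 5 of KO they differed by -1.88 (Slc1a1) to 0.54 (Ms4a4b), against -1.61 for Pla2g4c. AA467197 read 1250, 1232 and 950.1 in KO on days 2, 3 and 5, against 1092, 1989 and 2518 in L/L. Ms4a4b had 3 arrays below the intensity threshold and Nox4 had 2. All 5 were lower in KO on days 3 and 5. On day 2 their log2 differences lay between -0.33 (Capn13) and 0.20 (AA467197), against 1.33 for Pla2g4c, so the day 2 value of Pla2g4c had no counterpart among them.

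**Figure D3:**
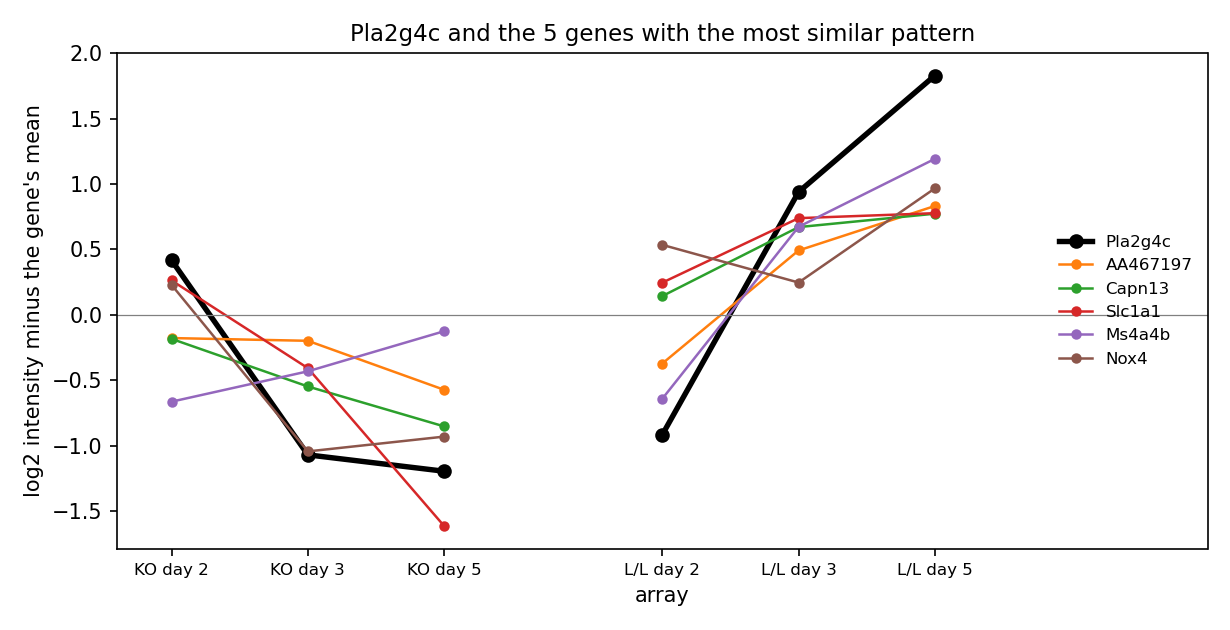
Log2 intensity minus the gene's mean over 6 arrays, for Pla2g4c (black) and the 5 genes with the smallest root mean square difference from it, on the KO arrays (left) and the L/L arrays (right). The 6 lines lie higher on L/L day 5 than on KO day 5, and Pla2g4c alone of them stands more than 1 log2 unit higher on KO day 2 than on L/L day 2.

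Pla2g4a, on chromosome 1, encodes the calcium-activated cytosolic enzyme that releases arachidonic acid for eicosanoid synthesis. Its probe set read 256.3, 238.9 and 324.7 in KO on days 2, 3 and 5, against 229.9, 229.2 and 232.5 in L/L. It was higher in KO on 3 of 3 days, the 3 KO arrays lay above the 3 L/L arrays, and L/L hardly varied. The log2 differences were 0.16, 0.06 and 0.48, with a mean of 0.23 ± 0.22 (SD, n = 3 days). Within L/L, day 5 differed from day 2 by 0.02, and within KO by 0.34.

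Pla2g6, on chromosome 15, encodes a calcium-independent phospholipase A2 that serves membrane remodelling. Its brightest probe set was nearly level, with 249.6, 251.4 and 245.9 in KO, against 254.5, 254.9 and 235.5 in L/L, and log2 differences of -0.03, -0.02 and 0.06. Its range over the 6 arrays, 0.11 on the log2 scale, was the narrowest of the members. The second probe set read 73.44, 46.99 and 71.11 in KO, against 76.94, 72.99 and 89.97 in L/L. It was lower in KO on 3 of 3 days, by a mean log2 difference of -0.35 ± 0.28 (SD, n = 3 days), so the 2 probe sets disagree. The third was near the threshold, at 46.78, 48.42 and 40.13 in KO, against 48.23, 53.16 and 33.78 in L/L, where the last array was dim.

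Pla2g15, on chromosome 8, encodes the phospholipase A2 of lysosomes. Its brighter probe set read 45.58, 45.44 and 64.32 in KO, against 48.95, 51.41 and 48.81 in L/L. The KO array of day 5 stood above the 5 others, and on days 2 and 3 KO was the lower genotype (log2 -0.10, -0.18 and 0.40). The dim probe set, below the threshold on all 6 arrays, read 28.69, 29.74 and 28.83 in KO, against 26.46, 23.18 and 22.03 in L/L.

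Pla2g7, on chromosome 17, encodes the secreted platelet-activating factor acetylhydrolase, which macrophages make and which inactivates that lipid mediator. Its probe set read 170.9, 190.7 and 217.6 in KO, against 169.2, 159.0 and 142.3 in L/L. KO was higher on 3 of 3 days, with the 3 KO arrays above the 3 L/L arrays, and the log2 differences were 0.01, 0.26 and 0.61. Between days 2 and 5 it differed by 0.35 within KO and by -0.25 within L/L, with a mean genotype difference of 0.30 ± 0.30 (SD, n = 3 days). Markers of macrophages and other myeloid cells moved with it: the 14 of 15 genes that were measured, all above the threshold on average, summed to 8485, 10009 and 13334 in KO, against 8012.6, 8430.7 and 7427.8 in L/L. On day 5 13 of the 14 were higher in KO, beside 7038 of all 13042 genes. The part of these cells in the Pla2g7 value was not tested.

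Among the 6 members, the 2 sets of 3 arrays did not overlap for 2, Pla2g4a and Pla2g7, as for 13.1% of all genes. Nothing is read from that count either, for the same reason.

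Pla2g1b, on chromosome 5, encodes the digestive phospholipase A2 that the pancreas secretes into the gut. Its brightest probe set was close to the threshold, with 51.52, 35.33 and 38.62 in KO, against 53.25, 42.28 and 37.2 in L/L. The KO arrays of days 3 and 5 and the L/L array of day 5 were dim. Both genotypes were highest on day 2, and the log2 differences between KO and L/L were -0.05, -0.26 and 0.05. Its 3 other probe sets lay between 6.76 and 12.6 on the 6 arrays, below the threshold throughout. Pancreatic acinar markers without Zg16, which goblet cells also express, had 9 of 13 measured genes above the threshold and summed to 1515.3, 1686.1 and 1519.6 in KO, against 1366.7, 1224.3 and 1130.2 in L/L. The brightest of them, Clps, weighs heavily in these sums, at 642.8, 744.0 and 795.4 in KO, against 472.0, 530.3 and 428.8 in L/L. With Zg16 counted, 5 of 10 markers were higher in KO on day 2, 10 on day 3 and 5 on day 5. Of all 13042 genes, 7239, 6199 and 7038 were higher on those days. On day 3 the acinar sum was higher in KO while Pla2g1b read lower.

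**Figure D4:**
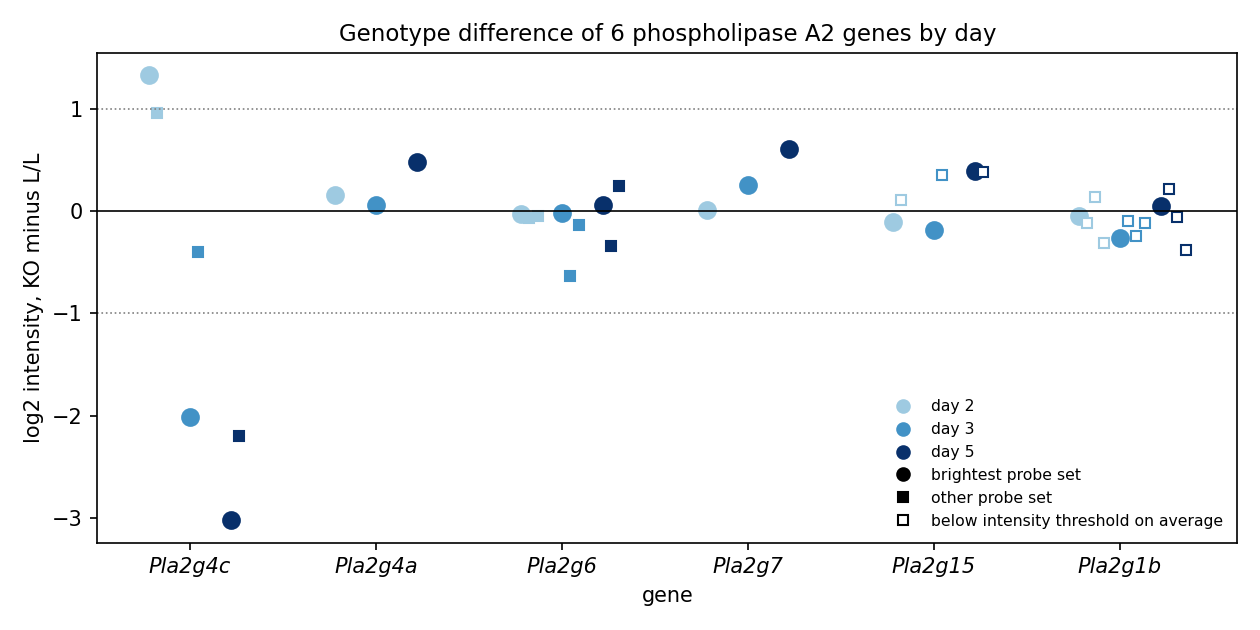
Log2 difference KO minus L/L for the 13 probe sets of the 6 genes, from light blue (day 2) to dark blue (day 5), with circles for the brightest probe set, squares for others, open squares for those below the intensity threshold on average and dotted lines at 2-fold. Only the brighter Pla2g4c probe set crosses both dotted lines, and the brightest probe sets of the other 5 genes lie between -0.26 and 0.61.

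Over the 3 days together, 0 of the 6 members passed the limma test of KO against L/L (adjusted p under 0.05), where 0.023% of all genes did, and 0 had an unadjusted p under 0.05, against 12.3% of all genes. For a change of that difference with day, 0 of 6 passed, against 1.23% of all genes, and 3 had an unadjusted p under 0.05, against 18.4% of all genes. Nothing is read from these counts. By the brightest probe set, the members other than Pla2g4c differed between KO and L/L by -0.26 to 0.61 on the log2 scale on a single day. Between days within L/L they differed by -0.52 to 0.07. The second Pla2g6 probe set lay outside these ranges, at -0.64 between KO and L/L on day 3 and 0.30 between days 5 and 3 of L/L. So did the third, at -0.65 between days 5 and 3 of L/L, where the day 5 array was dim. Dim probe sets could lie outside as well, as 1 of Pla2g1b did at -0.37 between KO and L/L on day 5. Counted in the same way, 3 of 6 members were higher in KO on day 2, 2 on day 3 and 5 on day 5. Of all 13042 genes, 7239, 6199 and 7038 were higher in KO on those days, and nothing is read from the members' counts. Pla2g4c ranged over 3.03 log2 units across the 6 arrays, the 10th widest of the 13042 genes, and the other members over 0.11 to 0.61, all by the brightest probe set. The second Pla2g6 probe set ranged over 0.94, the third over 0.65 and that dim Pla2g1b probe set over 0.68.

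Genes around phospholipase A2 were then described in 10 lists, 149 genes written, 136 measured and 116 above the threshold. Over the 3 days 0 of the 116 passed the limma test, with 15 (12.9%) at an unadjusted p under 0.05. For a change with day, 2 rose in KO relative to L/L (Mboat1 and Abcc4) and 1 fell (Lipg), beside 0.644% and 0.583% of all genes, with 27 (23.3%) at an unadjusted p under 0.05. The median log2 differences of the 116 for days 2, 3 and 5 were 0.01, 0.03 and 0.09, beside 0.01, -0.01 and 0.02 over all genes, with 36 of the 116 (31.0%) higher in KO on all 3 days and 21 (18.1%) lower, beside 22.1% and 17.4% of all genes. At 2-fold or more were 0 genes on day 2, 0 on day 3 and 7 on day 5, 5 of them higher in KO. Of all genes, 0.123%, 0.276% and 2.16% were at 2-fold or more on those days, with 1.28% higher and 0.882% lower in KO on day 5.

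Mboat1, an acyltransferase that returns a fatty acid to lysophospholipids, read 129.7, 246.5 and 469.3 in KO on days 2, 3 and 5, against 105.9, 134.7 and 111.6 in L/L. The log2 difference was 0.29, 0.87 and 2.07 and rose by 0.59 per day (SE 0.05, limma adjusted p = 0.0243). Its second probe set, with 4 dim arrays, gave 0.03, 1.05 and 2.00. Abcc4, an exporter of prostaglandins and other anions, read 96.61, 128.8 and 274.2 in KO, against 88.06, 95.97 and 93.32 in L/L. It rose by 0.49 per day (SE 0.05, limma adjusted p = 0.0375). Lipg, the endothelial lipase, which acts on lipoprotein phospholipid, read 49.99, 43.93 and 35.09 in KO, against 49.99, 52.44 and 88.61 in L/L, with the last KO array dim. It fell by 0.46 per day (SE 0.05, limma adjusted p = 0.0404). Its 2 other probe sets were dim on all 6 arrays (log2 -0.17 and -0.94 on day 5), and with probe sets averaged Lipg fell below the filter and was not tested. Without the intensity filter, with 18193 genes tested, none of the 3 passed (adjusted p = 0.169 for each), and with days coded in their order Mboat1 alone did.

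A list of further phospholipase A2 genes, which leaves out the Paneth cell gene Pla2g2a, had 11 above the threshold. Of these, 3 were higher and 1 was lower in KO on all days, and 0 passed either test (1 and 5 at an unadjusted p under 0.05). Pla2g12a, a secreted phospholipase A2, read 133.2, 155.6 and 158.4 in KO, against 132.2, 128.9 and 115.4 in L/L. Plaat3, an acyltransferase with phospholipase A activity known from fat tissue, read 327.8, 387.8 and 286.7 in KO, against 330.6, 501.4 and 450.8 in L/L. Both probe sets of Plaat3 were lower in KO on 3 of 3 days (log2 -0.01, -0.37 and -0.65 by the brighter one). Plaa, a ubiquitin-binding protein once described as an activator of phospholipase A2, differed by a mean of 0.11 ± 0.08 (SD, n = 3 days) by its brightest probe set. Its probe sets disagree on day 5. The third, dim on 5 of 6 arrays, was at least 1.99-fold higher in KO (77.34 against 37.33), and the last, dim on all 6, was lower (log2 -0.73).

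Downstream of arachidonic acid, the prostanoid synthesis and breakdown list had medians of 0.03, 0.07 and 0.15 on days 2, 3 and 5, with 5 of 12 genes higher in KO on all days and 1 lower. Ptgs2, the inducible cyclooxygenase, read 87.53, 84.17 and 137.8 in KO, against 69.7, 75.67 and 93.23 in L/L. Ptgis, the prostacyclin synthase, read 250.3, 285.8 and 421.2 in KO, against 284.0, 305.3 and 206.9 in L/L, and so stood 2.04-fold higher in KO on day 5 alone. The prostaglandin transporter Slco2a1 had the steadiest difference of these, 0.28 ± 0.06 (SD, n = 3 days). Of 7 prostanoid receptor genes, 2 were higher in KO on all days and 1 lower. Ptger4, a prostaglandin E2 receptor, read 969.1, 1268 and 1678 in KO, against 877.2, 1095 and 1030 in L/L, while Ptger2, another such receptor, differed by a mean of 0.24. Ptger3, a further one, read 44.06, 40.33 and 83.73 in KO, against 39.69, 55.48 and 36.15 in L/L, where the last array was dim. It was thus near the threshold on days 2 and 3, lower in KO on day 3 (log2 -0.46) and at least 2.15-fold higher in KO on day 5.

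The lipoxygenase and leukotriene list had medians of 0.02, -0.01 and 0.05, with 1 of 11 genes higher in KO on all days and 1 lower. Lta4h, which makes leukotriene B4, differed by a mean of -0.19, Ltb4r1, its receptor, by 0.11, and Ephx2, the soluble epoxide hydrolase, by 0.16. Among 6 platelet-activating factor genes, 3 were higher and 2 were lower in KO on all days. Lpcat2, which makes that mediator, read 104.7, 105.5 and 101.4 in KO, against 85.84, 75.44 and 75.18 in L/L. The acetylhydrolase genes Pafah1b3 and Pafah2, which like Pla2g7 break it down, differed by means of -0.27 and -0.22, while their relatives Pafah1b2 and Pafah1b1 differed by 0.21 and 0.07.

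Among 10 lysophospholipid reacylation genes, 4 were higher in KO on all days and 2 lower, with Lpcat4 at log2 differences of 0.06, 0.58 and 0.91 and Acsl4, which activates arachidonic acid, at 0.15, -0.23 and 0.85. A second Acsl4 probe set with no dim array gave -0.36, 0.03 and 0.38, so the probe sets disagree in sign on days 2 and 3. Of 17 lysophospholipases and patatin-like lipases, 5 were higher and 3 lower on all days. Plb1, a brush border phospholipase B, read 1596, 1268 and 554.9 in KO, against 1776, 1266 and 1180 in L/L, and 3 of its 4 probe sets were lower in KO on day 5. Gpcpd1, which cleaves glycerophosphocholine, differed by a mean of 0.32, and Abhd4, a lysophospholipase of N-acylated lipids, by 0.27. A second Gpcpd1 probe set with no dim array gave a smaller mean, 0.10, with -0.02 on day 5. The 17 lysosomal lipid genes, the setting of Pla2g15, had medians of 0.00, 0.06 and 0.10, with Lipa, the lysosomal acid lipase, at a mean of 0.28, Smpd1, the acid sphingomyelinase, at 0.19 and Gla, the alpha-galactosidase, at 0.23.

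Of 18 other phospholipases, 4 were higher and 8 lower in KO on all days, with Plcb3, a phospholipase C, at a mean of -0.22 and Pla1a, a phospholipase A1 with 3 dim arrays, at 0.31. The annexin and kinase regulators of cytosolic phospholipase A2 had medians of 0.04, 0.07 and 0.33, with 7 of 7 higher in KO on day 5, beside 7038 of all 13042 genes. Anxa1, an annexin described as an inhibitor of the cytosolic enzyme, read 439.7, 446.5 and 1223 in KO, against 456.9, 456.7 and 425.3 in L/L, 2.88-fold higher in KO on day 5 and level before. Anxa2 and Anxa5 differed by means of 0.21 and 0.24. Fibroblast markers, 9 of 9 above the threshold, summed to 12882, 12921 and 19311 in KO, against 12922, 12010 and 13774 in L/L, so they too stood higher in KO on day 5. Their part in the values of that day was not tested.

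**Figure D5:**
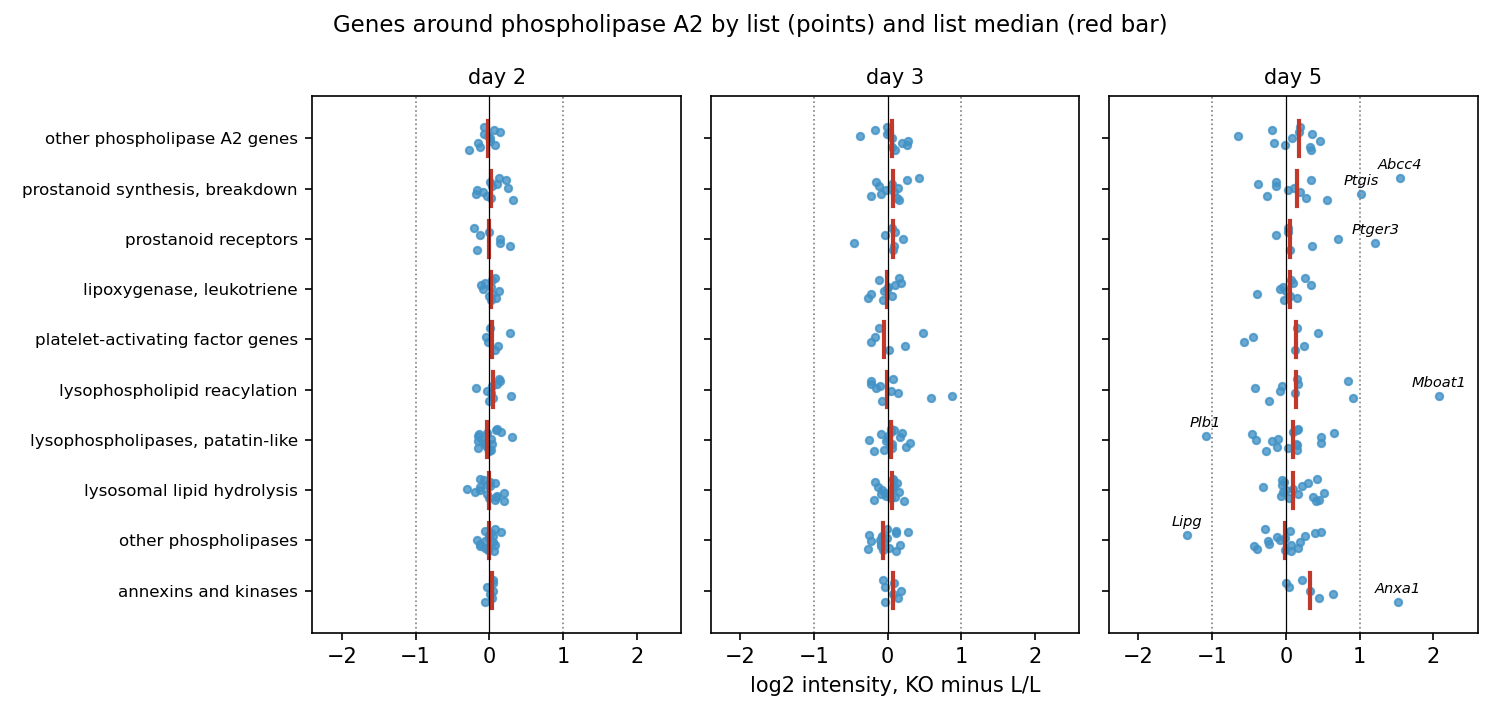
Log2 difference KO minus L/L of the 116 genes in 10 lists around phospholipase A2 (points) by day, with the list median as a red bar, dotted lines at 2-fold and names at genes beyond them. Points lie within the dotted lines on days 2 and 3, and on day 5 Mboat1, Abcc4, Anxa1, Ptger3 and Ptgis lie above and Plb1 and Lipg below them.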

How the data were processed

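The authors deposited 1 processed intensity per probe set and array, which ran from 3.82 to 31146 and so was on a linear scale. Partek and RMA are named in the submitters' processing notes, with no version or role, and how arrays were normalized to each other is not known. Log2 was taken with no offset. Of 45101 probe sets (64 controls), 34945 had 1 gene in the platform annotation, 932 several and 9160 were not listed. Symbols of 34741 were updated through the gene ID to GRCm38.p6. The brightest probe set by mean log2 stood for a gene, and 13042 of 18193 genes exceeded the 40th percentile. A level of one probe set was not set against that of another.

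Tests used limma 3.58.1 in R 4.3.3 (lmFit, eBayes, two-sided, Benjamini-Hochberg over 13042 genes) with day as a factor. One tested genotype over the 3 days (2 residual degrees of freedom, prior 3.03), and the other its product with centred day (1, prior 4.76). In the first, the residual is how far the KO minus L/L difference varied between days, so a difference that changes with day counts as noise. In the second, it is how far that difference departed from a straight line over the days. Neither measures how far pools of the same day vary. Differences on a single day have no test. Both fits were tested on simulated data. The members and lists were chosen with earlier results of these data known. Named beside them are the 3 genes of each list with the largest mean difference, any at 2-fold on a day or past a test, and the 5 genes closest in pattern to a member ranging over 1 log2 unit. Alternatives were the mean of probe sets, no filter, the 60th percentile, an offset of 32, median centring, cyclic loess, each day left out, eBayes with trend and robust, no day term and another day coding. Sums without Zg16, Cd24a or Pla2g2a were added after the values were seen.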

Additional observations from a re-analysis of the deposited data

Results flagged for a closer look

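Pla2g4c differed between KO and L/L by 1.33 on the log2 scale on day 2, -2.01 on day 3 and -3.03 on day 5. It is listed because its direction turned between days by more than 2-fold on either side. With 1 array per genotype and day, the turn of direction itself was not tested. A straight-line change of the difference with day was tested over all genes with limma, and Pla2g4c did not pass, though it did with an offset of 32 or with day order 1, 2, 3. No p is given and nothing is read from either outcome, since the gene was chosen on these values.

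Pla2g2a, the secreted phospholipase A2 of Paneth cells, is no member and was picked after its values were seen, because it turned the other way. It read 569.4, 1382 and 230.0 in KO on days 2, 3 and 5, against 1397, 478.2 and 109.3 in L/L, with log2 differences of -1.30, 1.53 and 1.07. That turn was not tested either, and the straight-line change with day, 0.64 per day, did not pass the limma test. No p is given and nothing is read from that outcome, since the gene was picked on these values. Within L/L the log2 difference between days 5 and 2 was -3.68, while Paneth markers without Pla2g2a summed to 27565, 30455 and 39294 in KO, against 22725, 24168 and 22948 in L/L. The gene is disrupted in some inbred mouse strains, and the strain of these mice is not given in the labels.

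Mboat1 (0.59 per day), Abcc4 (0.49 per day) and Lipg (-0.46 per day) are listed because the change of their log2 difference between KO and L/L with day passed the limma test.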

How the results depend on the processing

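Of 63 alternative values for the members' means over days, 60 stayed within 1 SD over days of the value reported. Much of this count was fixed beforehand, so it says little about stability. Leaving out 1 of 3 days cannot move a mean by 1 SD of those days, and a filter cannot change the mean of a kept gene. Of 36 alternative values for Pla2g4c on single days or between days of L/L, 26 stayed within 0.12, the median absolute log2 difference between days 3 and 2 of L/L over all genes. Those under the other filter settings equal the reported values by construction, since a filter cannot change a kept gene. Pla2g4c kept its sign on every day under all 6 alternatives of probe set, filter, offset and scaling (1.12 to 1.34 on day 2, -2.03 to -1.20 on day 3, -3.05 to -2.61 on day 5), and between days 5 and 2 within L/L (2.16 to 2.76). Among these alternatives, the filters could not change a value and the offset could not turn a sign. The Pla2g4c mean over days was -2.52 without day 2 and -0.34 without day 5, so single days decide it. Alternatives for the means of Pla2g6 (-0.35 to 0.02), Pla2g15 (-0.14 to 0.29) and Pla2g1b (-0.26 to 0.01) lay on both sides of 0.

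Of all genes, 3 differed over the 3 days, 1 with the mean of probe sets, 1 without day 2 and 0 without day 3 (606 at an unadjusted p under 0.05). The change with day was called in 160 genes (84 rising), in 0 with no filter (2475 at an unadjusted p under 0.05), 275 at the 60th percentile, 550 with an offset of 32, 312 with median centring and 63 with day order 1, 2, 3. The last coding and the offset each called 1 member, Pla2g4c, from which nothing is read, since it was chosen on this contrast. Of Mboat1, Abcc4 and Lipg, that coding called Mboat1 alone (adjusted p = 0.031, against 0.0603 for Abcc4 and 0.0682 for Lipg). Median centring, cyclic loess and the offset also called Anxa1 and Ptgis, and the 60th percentile called both but tested no Lipg. The cause of these shifts was not tested.

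Genes at 2-fold or more numbered 282 on day 5, 176 with the offset. Within L/L they numbered 26 between days 3 and 2 (45 with no filter, 17 with the offset), 54 between days 5 and 2 (32 with the offset) and 21 between days 5 and 3 (42 with no filter, 13 at the 60th percentile, 8 with the offset). The labels number no replicates, and day as a term of the fit already sets KO against L/L within each day. Without that term 3 genes were called. Signal over background limits Pla2g1b, Pla2g15 and the dimmer Pla2g4c probe set.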

Other observations

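Mast cells and tuft cells are other sources of lipid mediators in the gut. Tuft markers without Cd24a, which other epithelial cells express, summed to 720.64, 846.1 and 723.96 in KO on days 2, 3 and 5, against 666.87, 869.41 and 691.62 in L/L. Of 11 tuft markers above the threshold, 1 differed by 2-fold or more between KO and L/L on a day or between days of L/L, and it is named after its values were seen. Rgs13, a regulator of G protein signalling, read 62.15, 98.15 and 63.21 in KO, against 25.49, 107.7 and 65.2 in L/L, where the first array was dim. Of 9 mast cell markers, 3 lay above the threshold, and they summed to 278.74, 288.14 and 264.07 in KO, against 266.28, 319.96 and 282.64 in L/L. The part of these cells in the Pla2g4c values was not tested.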
